A study of Homo sapiens with 12 samples.

Results

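Long intergenic non-coding RNAs (lincRNAs) that were expressed in 2 pancreatic cancer cell lines were examined by RNA-seq. A lincRNA was taken as expressed when its mean over the 12 libraries was at least 2 TPM (the share of a transcript in the library, a level corrected for transcript length and library size). The rule kept 248 of the 7629 genes annotated as lincRNA, among 58721 genes in all, and 4782 of the lincRNAs had no count in any library. The members were thus chosen by their TPM, which is given as a description with no test. Just inside the limit lay AL121658.1 at 2.04 TPM, AC010618.3 at 2.01 and AP001527.2 at 2.00, and just outside it lay AC138035.1 at 1.99, AC093627.5 at 1.97 and AL390719.2 at 1.96.

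Pa-Tu-8902 (Tu8902 in the labels) and MIA PaCa-2 (Mia) are established human pancreatic ductal adenocarcinoma lines. Cells of all 4 groups carried iDox-shGOT1, a lentiviral short hairpin RNA against the aspartate transaminase GOT1 that is switched on by doxycycline (dox). In each line 3 libraries came from untreated cells (mnsdox) and 3 from cells kept in dox for 5 days (plsdox). No library came from cells given dox without this hairpin, and a response to dox itself and to GOT1 loss cannot be told apart. The labels do not say whether libraries came from separate cultures, and p-values therefore measure the spread between libraries, which may be technical. GOT1 was at 78.3 to 83.4 TPM in untreated and 3.29 to 4.51 TPM in dox-treated Pa-Tu-8902, and at 38.9 to 44.1 and 1.68 to 1.95 TPM in MIA PaCa-2.

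Libraries held 26226537 to 43406137 counts, and the 248 lincRNAs took 0.299% to 0.459% of them. The line of a library rests on its deposited title, although a supplementary count table of the study names the lines the other way round. In the libraries titled Mia, the epithelial markers EPCAM and CDH1 were at 0.08 to 0.36 and 0 to 0.22 TPM and VIM was at 3531 to 4218, whereas in those titled Tu8902 EPCAM was at 543 to 699, CDH1 at 60 to 139 and VIM at 2.54 to 10.5. Of the other mesenchymal markers, ZEB1 was also higher in Mia (7.71 to 12.4 TPM against 0.63 to 0.88). CDH2 and FN1 went the other way at low levels, with 0 to 0.01 and 0.03 to 0.16 TPM in Mia. In Tu8902 CDH2 was at 0.56 to 1.16 TPM and FN1 at 0.36 to 1.02. The keratins KRT8, KRT18 and KRT19 were above 127 TPM in every library, and markers of blood, endothelial, acinar and endocrine cells (PTPRC, CD3E, PECAM1, CDH5, PRSS1, CPA1, INS and GCG) did not exceed 0.72 TPM. Of the fibroblast markers, COL1A1 went from 3.43 to 6.31 TPM in untreated to 17.5 to 21.2 in dox-treated Pa-Tu-8902, and ACTA2 was at 1.6 to 12 TPM across all libraries; their part in the results below was not tested. In bulk RNA, fewer cells of a type and less RNA per cell cannot be told apart.

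LincRNAs are transcribed by RNA polymerase II from their own promoters and are usually capped and spliced, but they encode no known protein. Many stay in the nucleus, where MALAT1 lies in splicing speckles and NEAT1 builds the paraspeckle, and others act in the cytoplasm, as NORAD does by binding Pumilio proteins. A further class serves as a precursor, since small nucleolar RNAs or microRNAs are cut from its introns or exons while the spliced remainder is often degraded. Many others start head-to-head with a coding gene and share its promoter region, and such divergent transcripts often carry DT or AS in their names.

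Of the 248 lincRNAs, 240 were found by their identifiers in GENCODE release 44 on GRCh38, 57 overlapped a protein-coding gene, and 87 lay head-to-head with one, with the starts of both genes within 5000 bases. A coding gene lay within 5000 bases of 131, and 47 had none within 50 kb. FP671120.1 and FP236383.1 held identical values and may be a single locus counted under 2 names. For 40 of the 248, over 50% of the 12 estimated counts were not whole numbers, as happens where RSEM divides reads between loci, and these include PVT1, AC092139.1, AL161431.1 and AC245014.3.

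Mature microRNAs lay inside 13 of the lincRNAs. Of the 248, 12 were not searched, and another 8 could not be searched because they had no position in the annotation. Shown are 10 of these microRNAs, which lie in hosts whose values are given with the comparisons. Sequences are from RefSeq on GRCh38.p14, with the seed (bases 2 to 8), the stretch that pairs with targets, in capitals. The first 4 share the let-7 seed GAGGUAG although they come from 3 hosts on different chromosomes, MIRLET7BHG (let-7a and let-7b, chromosome 22), AC048341.2 (let-7i, chromosome 12) and MIR4458HG (miR-4458, chromosome 5).
hsa-let-7a-5p: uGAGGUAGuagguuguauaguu
hsa-let-7b-5p: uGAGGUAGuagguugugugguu
hsa-let-7i-5p: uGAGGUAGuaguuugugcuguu
hsa-miR-4458: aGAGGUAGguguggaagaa
The pair in MIR222HG on chromosome X shares the seed GCUACAU, and the pair in MIR200CHG on chromosome 12 has the seeds AAUACUG and AACACUG, which belong to the family that represses the mesenchymal regulators ZEB1 and ZEB2.
hsa-miR-221-3p: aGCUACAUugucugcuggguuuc
hsa-miR-222-3p: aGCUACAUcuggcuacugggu
hsa-miR-200c-3p: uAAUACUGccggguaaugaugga
hsa-miR-141-3p: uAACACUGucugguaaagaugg
The last ones lie in MIR22HG on chromosome 17 and in BLACAT1 on chromosome 1.
hsa-miR-22-3p: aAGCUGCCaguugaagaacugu
hsa-miR-135b-5p: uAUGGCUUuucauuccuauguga
MicroRNAs themselves were not measured in these poly(A)-selected libraries, and all values below are of the host transcripts.

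Abundance was concentrated in few genes. The median lincRNA had a mean of 5.14 TPM, 64 were at 10 TPM or more and 7 at 100 or more. The first 10 held 52.3% of the summed TPM of all 248, and MALAT1 and UCA1 alone held 26.6%. MALAT1 (chr11:65497640-65508073) was at 376, 396 and 219 TPM in untreated and 835, 645 and 672 in dox-treated Pa-Tu-8902, and at 276, 784 and 497 without dox and 525, 703 and 761 with it in MIA PaCa-2. Its 3 untreated MIA PaCa-2 libraries spanned the whole range of the treated ones.

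UCA1 (chr19:15828206-15836328), a transcript first described in urothelial carcinoma, was at 713, 751 and 771 TPM in untreated and 1036, 1012 and 1135 in dox-treated Pa-Tu-8902. In MIA PaCa-2 it was at 171, 137 and 171 without dox and 127, 138 and 130.3 TPM with it, so the lines did not overlap. The snoRNA host SNHG19 was at 167 to 193 TPM in untreated Pa-Tu-8902 and at 279 to 377 in untreated MIA PaCa-2, and SNHG8, another host, at 199.7 to 231 and 166 to 204. MIR4435-2HG and CYTOR, near-identical copies on chromosome 2 that both hold miR-4435, were at 127 to 216 and 132 to 217 TPM over all 12 libraries.

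NEAT1 lay between 63.1 and 203 TPM, NORAD between 49.2 and 91.1, and PVT1, which borders MYC on chromosome 8, between 21.7 and 105. LINC02154 reached 164 to 218 TPM in MIA PaCa-2 and at most 0.28 in Pa-Tu-8902. RMRP, the RNA of the RNase MRP ribonucleoprotein, which has no poly(A) tail, varied from 0 to 94.4 TPM within Pa-Tu-8902 alone. The sum over all 248 was 3573 to 4054 TPM in untreated and 4207 to 4654 in dox-treated Pa-Tu-8902, and without MALAT1 and UCA1 it was 2583 to 2907 and 2528 to 2783; the first pair of ranges did not overlap and the second did. In MIA PaCa-2 the sum was 3587 to 4267 TPM without and 3846 to 4171 with dox, and these ranges overlapped.

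**Figure D1:**
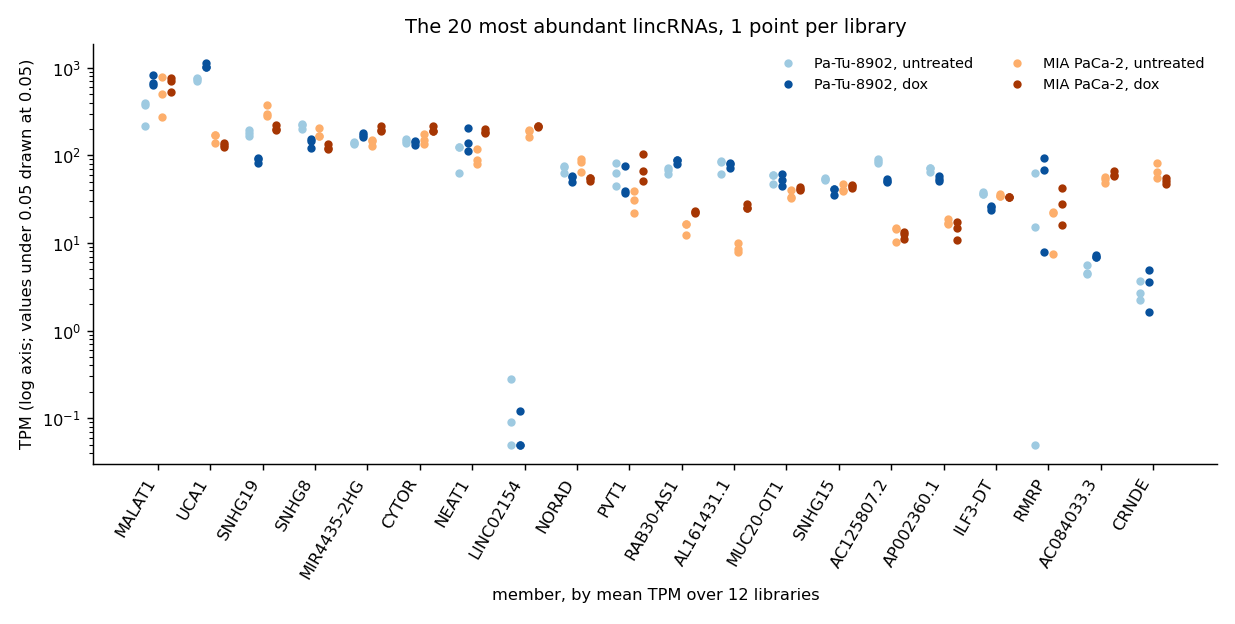
TPM (log axis) of the 20 lincRNAs with the highest mean over the 12 libraries, with 1 point per library and 4 colours for the groups; values under 0.05 are drawn at 0.05. LINC02154 lies at 164 to 218 TPM in MIA PaCa-2 and at or near 0 in Pa-Tu-8902, UCA1 is higher in every Pa-Tu-8902 library, and RMRP scatters widely among replicates.

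Untreated Pa-Tu-8902 was first compared with untreated MIA PaCa-2, which describes the lincRNAs that mark each line. A gene was called when edgeR's quasi-likelihood test gave a Benjamini-Hochberg adjusted p below 0.01 over all genes tested and the fold change was at least 1.5. Of 240 lincRNAs tested, 69 were higher and 98 lower in Pa-Tu-8902, against 28.9% of all 15608 genes tested that were higher and 29.3% that were lower. The median log2 difference was -0.40, and -0.03 over all genes. A lincRNA that is absent from 1 line can reach 2 TPM only by being high in the other, so these counts do not bear on lincRNAs as a class. The number higher in Pa-Tu-8902 was 44 without replicate 2, 45 without replicate 3 and 46 without replicate 1 of that line, when a lincRNA of 1 line could no longer reach the 3 libraries with 10 counts that a test needed. Among the 144 with a mean of at least 2 TPM in each line, 138 were tested, 27 were higher and 50 lower in Pa-Tu-8902. Another 46 reached a line mean of 2 TPM in Pa-Tu-8902 alone and 58 in MIA PaCa-2 alone.

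In 35 of the 248 no library of 1 untreated line exceeded 3 counts, which was taken as the floor, with 16 of these at the floor in Pa-Tu-8902 and the other 19 at the floor in MIA PaCa-2. AC104823.1 (chr2:195448532-195481827) had normalized counts of 1106, 989.8 and 1019.5 in untreated MIA PaCa-2 and 0 in each Pa-Tu-8902 library, which makes it at least 291-fold lower there when 3 counts per library are allowed. LINC01010 (chr6:134343307-134504581) had 807, 661 and 835 against 0 in each, at least 194-fold lower. Both were present in one line only as far as this depth shows. LINC01224, PICSAR, LINC02101 and LINC01571 were also at 0 in each untreated Pa-Tu-8902 library, with limits of 17.9 to 68.5-fold, while AL078590.3 had 1.1, 0 and 1.0 normalized counts there against 519, 576 and 532 in MIA PaCa-2. LINC02154 was not at the floor, since 1 Pa-Tu-8902 library held 6.2 normalized counts against 4454, 4470.2 and 4353 in MIA PaCa-2 (log2 -10.46 ± 0.20).

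In the other direction, AC093904.4 (chr2:9106593-9109865) had 501, 507 and 432 normalized counts in untreated Pa-Tu-8902 and 0 in each MIA PaCa-2 library, at least 140-fold higher. LINC01806 (chr2:161244720-161249095, 8490 bases from TANK, which was not called) had 388, 429 and 411 against 0, at least 126-fold higher. For AC105460.1, LINC02474, AP000904.1, LINC02081, AC005392.2 and AL035661.1 the limits were 21.3 to 83.0-fold. Each of them was at 0 in every untreated MIA PaCa-2 library.

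Of 7 listed microRNA hosts, 4 were higher in Pa-Tu-8902 and 3, MIR22HG, MIR222HG and MIR4435-2HG, were not called, beside 28.9% of all genes called higher. MIR200CHG had 57.8, 40.9 and 46.2 normalized counts in untreated Pa-Tu-8902 and 0 in each MIA PaCa-2 library, at least 13.2-fold higher. ZEB1, a known target of the microRNAs it holds, had 57.8, 72.9 and 46.2 against 1369.9, 1102 and 1284, the opposite order, with a log2 difference of -4.39 ± 0.15 (adjusted p = 8.55e-12). ZEB2, also named above, did not reach the counts needed for a test. The let-7 hosts MIRLET7BHG and MIR4458HG were 2.44-fold (log2 1.29 ± 0.22) and 4.07-fold (log2 2.02 ± 0.27) higher in Pa-Tu-8902, and with effective lengths as offsets these log2 differences were 2.72 and 1.94. AC048341.2, the host of let-7i, which was not on the list, went the other way with 27.2, 26.7 and 20.5 normalized counts in Pa-Tu-8902 and 58.2, 150.4 and 98.1 in MIA PaCa-2 (log2 -2.03 ± 0.33, adjusted p = 7.37e-05). MIR22HG had 353, 333 and 323 normalized counts in Pa-Tu-8902 against 234, 294 and 296 (log2 0.29 ± 0.12, not called). PVT1 was 1.56-fold higher in Pa-Tu-8902, a call that was lost without untreated MIA PaCa-2 replicate 1 (log2 0.53).

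Of 6 lincRNAs listed as linked to cancer, 4 were higher and 1 was lower in Pa-Tu-8902, with a list median of 0.83. Over all genes tested, 28.9% were called higher and 29.3% lower. UCA1 was 4.66-fold higher (log2 2.22 ± 0.08, adjusted p = 1.23e-11), LINC00941 2.84-fold (log2 1.51 ± 0.09, and 2.47 with effective lengths as offsets) and LINC00857 2.02-fold. CRNDE, which starts next to IRX5 and was named for colorectal neoplasia, had 27.2, 33.8 and 23.6 normalized counts in Pa-Tu-8902 and 587, 855 and 486 in MIA PaCa-2, a log2 difference of -4.49 ± 0.24. FTX and JPX, neighbours in the X-inactivation centre, were 7.43-fold and 2.61-fold lower in Pa-Tu-8902. FTX, which also holds microRNAs, depended on the length used, as its log2 difference of -2.89 ± 0.21 was -1.34 with effective lengths as offsets and the untreated mean was 2.2 TPM in Pa-Tu-8902 against 5.34 in the other line.

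Of 7 snoRNA hosts, 4 were lower in Pa-Tu-8902 by edgeR, 3 were called by DESeq2 and none was called higher, beside 29.3% of all genes called lower. SNHG25 and SNHG9 were 5.57-fold and 2.64-fold lower, and SNHG19 1.87-fold. The remaining call, EPB41L4A-AS1, stood at 1.5-fold, the limit of the call, and was lost under DESeq2 and when any of untreated MIA PaCa-2 replicate 2 and the 3 Pa-Tu-8902 libraries was left out (log2 -0.48 to -0.57). MALAT1, NEAT1, NORAD, MIR4435-2HG, CYTOR and SNHG8 were not called between the lines.

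**Figure D2:**
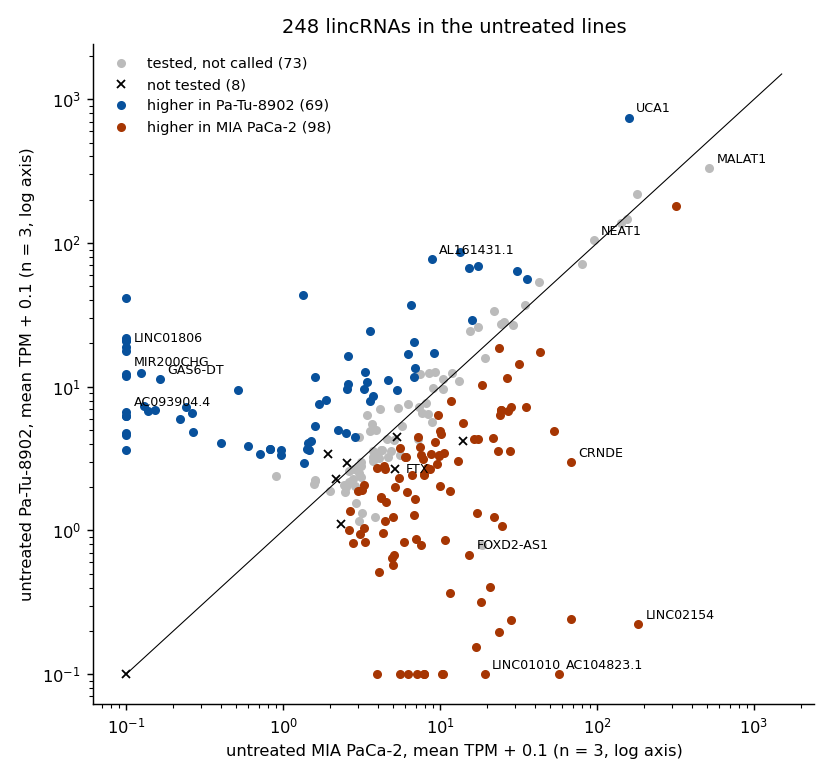
Mean TPM + 0.1 of the 248 lincRNAs in untreated MIA PaCa-2 (x) and untreated Pa-Tu-8902 (y), 3 libraries each, on log axes with the line of equal levels; colours mark the called direction and crosses the 8 lincRNAs that were not tested. Called lincRNAs lie on both sides of the line, 69 above and 98 below it, with AC104823.1 and LINC01010 at 0 in Pa-Tu-8902 and LINC01806 and MIR200CHG at 0 in MIA PaCa-2.

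Which lincRNAs changed with the induced hairpin was then asked in each line, against the same untreated libraries that were compared above. In Pa-Tu-8902, 218 of the 248 were tested and 40 were called, 18 higher and 22 lower with dox. These are 18.3% of those tested, against 16.3% of all 14949 genes tested (9.22% higher and 7.12% lower), and the median log2 fold change was -0.04 against 0.00 over all genes. The untreated and dox-treated libraries did not overlap for any of the 40. With 3 libraries per group the limits of a call make this likely, so it adds no support. The falls were steadier than the rises: leaving out a library gave 19 to 23 falls but 7 to 15 rises, with 7 rises without dox-treated replicate 3, 9 without untreated replicate 2, 10 without dox-treated replicate 1 and 11 without untreated replicate 3.

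The 3 largest falls were of transcripts that start head-to-head with a coding gene. SH3TC2-DT had 85.2, 61.1 and 40.6 normalized counts in the untreated and 11.6, 10.3 and 8.5 in the dox-treated libraries, a 6.05-fold fall (log2 -2.60 ± 0.34, adjusted p = 9.77e-05). GAS6-DT had 517, 470.0 and 503 without dox and 106, 73.4 and 89.9 with it, a 5.57-fold fall (log2 -2.48 ± 0.13, adjusted p = 1.50e-07). FOXD2-AS1 (chr1:47432133-47434641), 3403 bases from the forkhead gene FOXD2, had 34.1, 27.7 and 40.6 without dox and 4.8, 6.3 and 9.5 with it, a 4.92-fold fall. These 3 were low after dox, with 4.8 to 105.7 normalized counts in the 3 treated libraries.

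AC093904.4, which was at 0 in untreated MIA PaCa-2, had 538, 546 and 474 normalized counts without and 123, 117 and 113 with dox, a 4.41-fold fall with the smallest adjusted p of the 40 (7.28e-08). The nearest coding gene, ASAP2, was 96900 bases away. MANCR (chr10:4581295-4678216), named for its association with mitosis, had 124, 138 and 153 without dox and 46.5, 46.6 and 55.0 with it, a 2.82-fold fall (log2 -1.49 ± 0.16, adjusted p = 2.32e-05). AL139246.5, which overlaps HES5, fell 3.96-fold, AC021218.1 2.52-fold and AL365356.5 2.19-fold. The other 14 falls lay between log2 -1.10 and -0.59.

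Among the rises, AL021807.1 had 2.4, 2.9 and 2.3 normalized counts in untreated cells, at the floor of 3 counts in each library, and 23.3, 18.9 and 18.0 after dox, at least 4.93-fold higher. AL035661.1 (chr20:24931840-24932983) had 82.7, 70.7 and 93.5 without dox and 286, 309 and 255 with it, a 3.46-fold rise (log2 1.79 ± 0.14, adjusted p = 2.22e-06), and it was at 0 in untreated MIA PaCa-2. OSER1-DT rose 1.95-fold (79.1, 82.2 and 92.4 to 154, 168 and 174) and FLJ20021 2.1-fold. None of these groups overlapped.

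The remaining large rises rested on few libraries or on the length used. AC092139.1 had 35.3, 7.6 and 4.5 normalized counts without and 74.6, 65.5 and 44.4 with dox. Its 4.05-fold rise (adjusted p = 0.0078) was lost when any library other than untreated replicate 1 was left out (log2 1.60 to 2.21), and none of its counts was a whole number. LY6E-DT rose 2.05-fold, which was not called without dox-treated replicate 3 (log2 0.91) or untreated replicate 1 (log2 0.98). Its call was also lost with effective lengths as offsets (log2 0.88, adjusted p = 0.0234).

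FTX, a long X-linked transcript, had 99.8, 86.0 and 56.3 without dox and 206, 119 and 156 with it, a 1.98-fold rise (adjusted p = 0.00555). With the effective lengths that RSEM assigned to each library the FTX value was 0.20 (adjusted p = 0.489), and it was also lost without untreated replicate 2 or 3 or dox-treated replicate 1 or 3 (log2 0.78 to 1.04). RSEM put 58.6% of FTX on the isoform FTX-201 in untreated and 25% in dox-treated Pa-Tu-8902 (means of 3), and 8.27% and 18.5% on FTX-210. The estimated effective length of FTX ranged from 1114 to 4843 bases over the 12 libraries. Of the 10 most abundant lincRNAs, MALAT1 was the only one called higher in Pa-Tu-8902, with 24558, 24471 and 15068 normalized counts without and 48893, 39209 and 35591 with dox, a 1.93-fold rise (log2 0.95 ± 0.17, adjusted p = 0.000918).

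In MIA PaCa-2, 213 were tested and 35 were called, 12 higher and 23 lower. These are 16.4% of those tested, against 12% of all 14589 genes tested (4.36% higher and 7.64% lower), with a median of -0.05 against -0.01. Again no called lincRNA had overlapping groups, which the limits of a call make likely. The count of rises rested on single libraries: it was 20 without untreated replicate 2, whose omission kept all 12, but 6 without untreated replicate 1 and 5 without dox-treated replicate 2 or 3. Untreated replicate 2 differed most from its group, with a chi-square per degree of freedom over genes of 27.3 and 25.5 against replicates 1 and 3, which differed from each other by 6.4. The count of falls stayed between 17 and 23.

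AL161431.1 (chr13:109269634-109278512), an abundant transcript 61629 bases from MYO16, had 774, 825 and 909 normalized counts in untreated and 2275, 2542 and 2365 in dox-treated MIA PaCa-2, a 2.86-fold rise (log2 1.52 ± 0.08, adjusted p = 1.27e-07). In Pa-Tu-8902 it was higher throughout, with 8534, 8568 and 6596 without dox and 7573, 7181 and 7819 with it (log2 -0.07 ± 0.09, adjusted p = 0.54). In 75% of the libraries its count was not whole. AC005332.5 rose 2.01-fold, from 127, 182 and 179 to 336, 329 and 315, and BLACAT1, the host of miR-135b, rose 1.83-fold, from 169.7, 197 and 210.0 to 307, 412 and 335 (log2 0.87 ± 0.13, adjusted p = 0.000329).

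NEAT1, the scaffold of paraspeckles, had 6159.6, 9499.9 and 11074 normalized counts without and 15027, 16133 and 15063 with dox, a 1.73-fold rise (log2 0.79 ± 0.16, adjusted p = 0.00219). The call was lost without untreated replicate 1 (log2 0.58, under the fold limit) and without dox-treated replicate 2 or 3 (adjusted p = 0.0103 and 0.01). In Pa-Tu-8902 NEAT1 had 8993, 8744 and 5189.7 without dox and 14264, 8491 and 9990.1 with it, groups that overlapped. AC245014.3 was at 4.6, 6.2 and 5.9 without dox and 26.4, 18.4 and 26 with it in MIA PaCa-2, a 4.2-fold rise of a gene with few and mostly shared counts, and AC073529.1 rose 1.92-fold, a call lost without untreated replicate 1 (log2 0.87) or dox-treated replicate 2 or 3 (log2 0.74 and 1.00).

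The largest fall in MIA PaCa-2 was again AL021807.1, with 124, 214 and 148 normalized counts without and 35.2, 43.6 and 18.2 with dox, a 5.12-fold fall (log2 -2.36 ± 0.29, adjusted p = 8.19e-05). LINC01224, at the floor in untreated Pa-Tu-8902, had 226, 236 and 239 without dox and 70.4, 94.1 and 84.1 with it, a 2.82-fold fall (adjusted p = 7.72e-06). LINC01571 fell 2.71-fold from 65.9, 68.8 and 60.1, and it too was at 0 in every Pa-Tu-8902 library. AC104823.1 and LINC01010, which were at 0 in untreated Pa-Tu-8902, fell 1.7-fold and 1.54-fold, the latter short of the fold limit without untreated replicate 3 (log2 -0.57).

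NORAD had 10797, 8954 and 9968 normalized counts without and 6505, 6542 and 6292 with dox, a 1.54-fold fall (log2 -0.62 ± 0.07, adjusted p = 5.18e-05) that was under the fold limit without untreated replicate 1 (log2 -0.56). In Pa-Tu-8902 it was 1.37-fold lower with dox (log2 -0.46 ± 0.06, adjusted p = 0.00012), below the fold limit for a call. AC104986.2, LINC01351 and AL590705.1, with 6.6 to 79.0 normalized counts, fell 2.77-fold, 2.41-fold and 2.24-fold. Each of these 3 calls was lost without dox-treated replicate 1 or 2 (adjusted p = 0.0104 to 0.0279) and also without untreated replicate 3 or dox-treated replicate 3 (AC104986.2), untreated replicate 3 (LINC01351) or untreated replicate 1 or dox-treated replicate 3 (AL590705.1).

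Of the 188 lincRNAs tested in both lines, 12 were called in both (6.38%), and 585 of all 13109 genes tested in both were (4.46%). The 4 that rose in both were AC015813.1 (1.77-fold in Pa-Tu-8902 and 1.71-fold in MIA PaCa-2), AC026401.3 (1.6 and 1.52), AC092139.1 (4.05 and 2.53) and AC092747.4 (1.78 and 1.53). AC015813.1, AC026401.3 and AC092747.4 overlap a coding gene on the same strand. Whether reads of that gene were counted for the lincRNA was not tested. Leaving out a library ended at least 1 call of each of the 4. AC015813.1 was lost without untreated replicate 2 or 3 or dox-treated replicate 1 or 3 in Pa-Tu-8902 (log2 0.57 to 0.91) and without untreated replicate 1 or dox-treated replicate 2 or 3 in MIA PaCa-2 (log2 0.58 to 0.73). AC026401.3 was lost without untreated replicate 2 or 3 or dox-treated replicate 2 in Pa-Tu-8902 (log2 0.53 to 0.66) and without untreated replicate 1 or 3 or dox-treated replicate 2 in MIA PaCa-2 (log2 0.54 to 0.58). AC092747.4 was lost in MIA PaCa-2 without untreated replicate 1 or 3 or dox-treated replicate 2 or 3 (log2 0.54 to 0.58).

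The 7 that fell in both were AL139246.5, AC021218.1, SNHG19, LINC01843, EIF3J-DT, LINC00346 and LINC00662. AL139246.5 had 63.3, 77.4 and 65.4 normalized counts without and 18.4, 15.8 and 18.0 with dox in Pa-Tu-8902 and 115, 130.4 and 109 without dox and 38.5, 43.6 and 44.2 with it in MIA PaCa-2, which are 3.96-fold and 2.8-fold falls. LINC01843 fell 1.85-fold and 2.49-fold, and LINC00346 had 658, 702 and 693 without dox and 347, 422 and 384 with it in Pa-Tu-8902 and 393, 369.5 and 442 without dox and 227, 217 and 201 with it in MIA PaCa-2, 1.78-fold and 1.87-fold falls. EIF3J-DT fell 1.82-fold and 1.69-fold, LINC00662 1.71-fold and 1.67-fold, and AC021218.1 2.52-fold and 1.58-fold.

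SNHG19, the most abundant of the 7, had 556, 519 and 452 normalized counts without and 242, 251 and 225 with dox in Pa-Tu-8902 (log2 -1.08 ± 0.10, adjusted p = 8.36e-06) and 704, 1184 and 724 without dox and 505, 485 and 512 with it in MIA PaCa-2 (log2 -0.80 ± 0.17, adjusted p = 0.00304). Its call in MIA PaCa-2 was lost without untreated replicate 2, the highest library (log2 -0.52, under the fold limit), and without dox-treated replicate 2 or 3 (adjusted p = 0.0122 and 0.0134). The remaining lincRNA of the 12, AL021807.1, rose in Pa-Tu-8902 and fell in MIA PaCa-2.

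**Figure D3:**
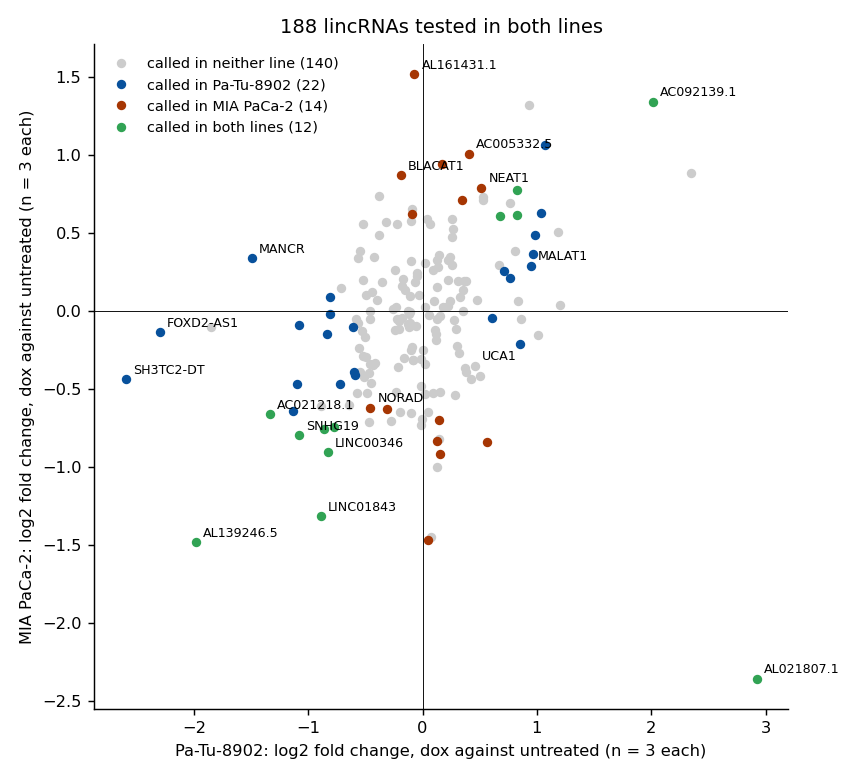
Log2 fold change with dox in Pa-Tu-8902 (x) and in MIA PaCa-2 (y) for the 188 lincRNAs tested in both lines, 1 point per lincRNA, coloured by the line or lines in which it was called. The 12 lincRNAs called in both lie mostly at the lower left or upper right, with AL021807.1 alone at the lower right; AL161431.1 moved in MIA PaCa-2 and FOXD2-AS1 and MANCR in Pa-Tu-8902.

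Of the snoRNA hosts, 3 of 6 tested fell in Pa-Tu-8902 with a median of -0.56, beside 7.12% of all genes tested: SNHG19, SNHG4 (1.75-fold, log2 -0.81 ± 0.12, adjusted p = 0.000181) and SNHG8 (1.52-fold). SNHG8 stood at the fold limit and was below it without untreated replicate 2 or dox-treated replicate 1 or 3 (log2 -0.47 to -0.58). In MIA PaCa-2 SNHG19 was the only one of 7 that was called, with a list median of -0.29, beside 7.64% of all genes called lower. SNHG15 was 1.43-fold lower in Pa-Tu-8902 (log2 -0.52 ± 0.07), under the fold limit. SnoRNAs themselves were not measured.

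None of the listed microRNA hosts was called with dox by edgeR or DESeq2, and 0 of 7 had an unadjusted p under 0.05 in Pa-Tu-8902 and 4 of 6 in MIA PaCa-2. The list leaves out BLACAT1 and FTX, which also hold microRNAs. As given above, BLACAT1 was called higher in MIA PaCa-2 and FTX in Pa-Tu-8902. MIR222HG had 89.0, 168 and 127 normalized counts without and 175, 193 and 194 with dox in MIA PaCa-2 (log2 0.55 ± 0.19, adjusted p = 0.037), and it was called without untreated replicate 2 (log2 0.79). PVT1 had 245, 290.5 and 324 without dox and 440.1, 420.0 and 422 with it there (log2 0.58 ± 0.11, adjusted p = 0.00131), just under the fold limit, and was called without untreated replicate 3 (log2 0.67) and with effective lengths as offsets (log2 1.21, adjusted p = 0.00453). MIR4458HG was called there only without untreated replicate 2 (log2 0.84).

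Of 4 nuclear-retained or chromatin-associated lincRNAs, MALAT1 and FTX rose in Pa-Tu-8902 and NEAT1 in MIA PaCa-2. Of all genes tested, 9.22% were called higher in Pa-Tu-8902, and 4.36% higher and 7.64% lower in MIA PaCa-2. In MIA PaCa-2 MALAT1 had 13383, 41918 and 25256 normalized counts without and 27856, 34344 and 36363 with dox, and its value turned on single untreated libraries, with a log2 fold change of 0.76, which was called, without replicate 2 and of -0.03 without replicate 1. FTX was called there without untreated replicate 3 (log2 0.67). JPX was not called with dox. Of 4 listed for p53 and genome stability, NEAT1 rose and NORAD fell in MIA PaCa-2, and no call was made in Pa-Tu-8902 by edgeR or DESeq2 (2 of 4 with an unadjusted p under 0.05). TP53TG1 was at 96.5, 112 and 88.7 without dox and 53.9, 74.6 and 61.6 with it in MIA PaCa-2 (log2 -0.65 ± 0.18, adjusted p = 0.0146). Of 3 listed as responsive to stress, NEAT1 in MIA PaCa-2 was the only call, and in Pa-Tu-8902 2 of 3 had an unadjusted p under 0.05.

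Of 6 lincRNAs linked to cancer, LINC00941 fell 1.65-fold in Pa-Tu-8902, with 2316, 2591 and 2146 normalized counts without and 1423, 1420.4 and 1439 with dox (log2 -0.72 ± 0.07, adjusted p = 9.20e-06). Of all genes tested in this line, 7.12% were called lower. In MIA PaCa-2 LINC00941 was 1.39-fold lower, under the fold limit, and edgeR and DESeq2 called 0 of the 6 there while 5 had an unadjusted p under 0.05. CRNDE was among these with 570.4, 852 and 479 without dox and 440.1, 418 and 452 normalized counts with it (log2 -0.54 ± 0.17, adjusted p = 0.0253), and was called without untreated replicate 3 (log2 -0.71). UCA1 was 1.37-fold higher with dox in Pa-Tu-8902 (log2 0.46 ± 0.06, adjusted p = 9.34e-05) and 1.28-fold lower in MIA PaCa-2 (log2 -0.35 ± 0.06, adjusted p = 0.00119), both under the fold limit and with groups that did not overlap.

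Genes of proteins that bind or degrade such RNAs were set beside all genes called with dox, 16.3% in Pa-Tu-8902 against 12% in the other line. Of 20 paraspeckle proteins, SS18L1 rose in Pa-Tu-8902 (1.72-fold, log2 0.79 ± 0.09, adjusted p = 3.27e-05) and ZNF24 fell in MIA PaCa-2 (1.81-fold, log2 -0.85 ± 0.07), and the core proteins NONO, SFPQ and PSPC1 were called in neither line. Of 24 members of the nuclear exosome and its adaptors, which degrade many non-coding RNAs, EXOSC3 and the poly(A) polymerase TENT4B fell in Pa-Tu-8902 (1.54-fold and 1.89-fold), and 0 of 24 were called in MIA PaCa-2 by edgeR or DESeq2, with 13 at an unadjusted p under 0.05. Of 17 factors of nonsense-mediated decay, 0 were called in either line by edgeR or DESeq2, while 6 had an unadjusted p under 0.05 in Pa-Tu-8902 and 5 had one in MIA PaCa-2.

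The difference of the dox change between the lines was tested as an interaction over all 12 libraries, with positive values where the change was more positive in Pa-Tu-8902. It was called for 18 of 244 lincRNAs tested, or 7.38%, against 10.4% of all 16544 genes tested, 6 in the positive direction (6.56% of all genes) and 12 in the negative one (3.86%). Leaving out a library gave 4 to 7 positive and 9 to 13 negative calls, with 4 positive calls when untreated Pa-Tu-8902 replicate 2 or 3, dox-treated Pa-Tu-8902 replicate 1 or untreated MIA PaCa-2 replicate 2 was left out.

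AL021807.1 had the largest difference (5.27 ± 0.57 on the log2 scale), although this value depends on counts at the floor in untreated Pa-Tu-8902. FOXD2-AS1 fell in Pa-Tu-8902 and had 807, 854 and 847 normalized counts without and 767, 838 and 682 with dox in MIA PaCa-2, where it was far higher, and the difference was -2.16 ± 0.30 (adjusted p = 3.41e-05). MANCR fell in Pa-Tu-8902 and had 70.5, 62.6 and 62.1 without dox and 95.7, 74.6 and 77.2 with it in MIA PaCa-2, a difference of -1.83 ± 0.24 (adjusted p = 1.90e-05). AL161431.1, which rose in MIA PaCa-2, differed by -1.59 ± 0.13 (adjusted p = 7.59e-08).

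SH3TC2-DT had 249.5, 304 and 359 without dox and 229.9, 259 and 187 normalized counts with it in MIA PaCa-2, overlapping groups, and differed by -2.15 ± 0.37 (adjusted p = 0.00032), but with effective lengths as offsets the adjusted p was 0.0399. RSEM changed the split of this gene into isoforms between the lines, with SH3TC2-DT-206 at 61.5% and 55.9% in Pa-Tu-8902 without and with dox and at 15.9% and 11.2% in MIA PaCa-2. AC104986.2, which starts head-to-head with VPS13B, differed by 1.52 ± 0.39 (adjusted p = 0.00733), a call lost when any library other than untreated replicate 1 or dox-treated replicate 2 of MIA PaCa-2 was left out (log2 1.3 to 1.59). UCA1 differed by 0.81 ± 0.09 (adjusted p = 6.10e-06), the host genes SNHG4 and SNHG15 by -0.90 ± 0.17 and -0.71 ± 0.13, and PVT1 by -0.68 ± 0.14, a call lost without untreated MIA PaCa-2 replicate 1 (log2 -0.58) and with effective lengths as offsets (log2 -1.63, adjusted p = 0.0104).

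**Figure D4:**
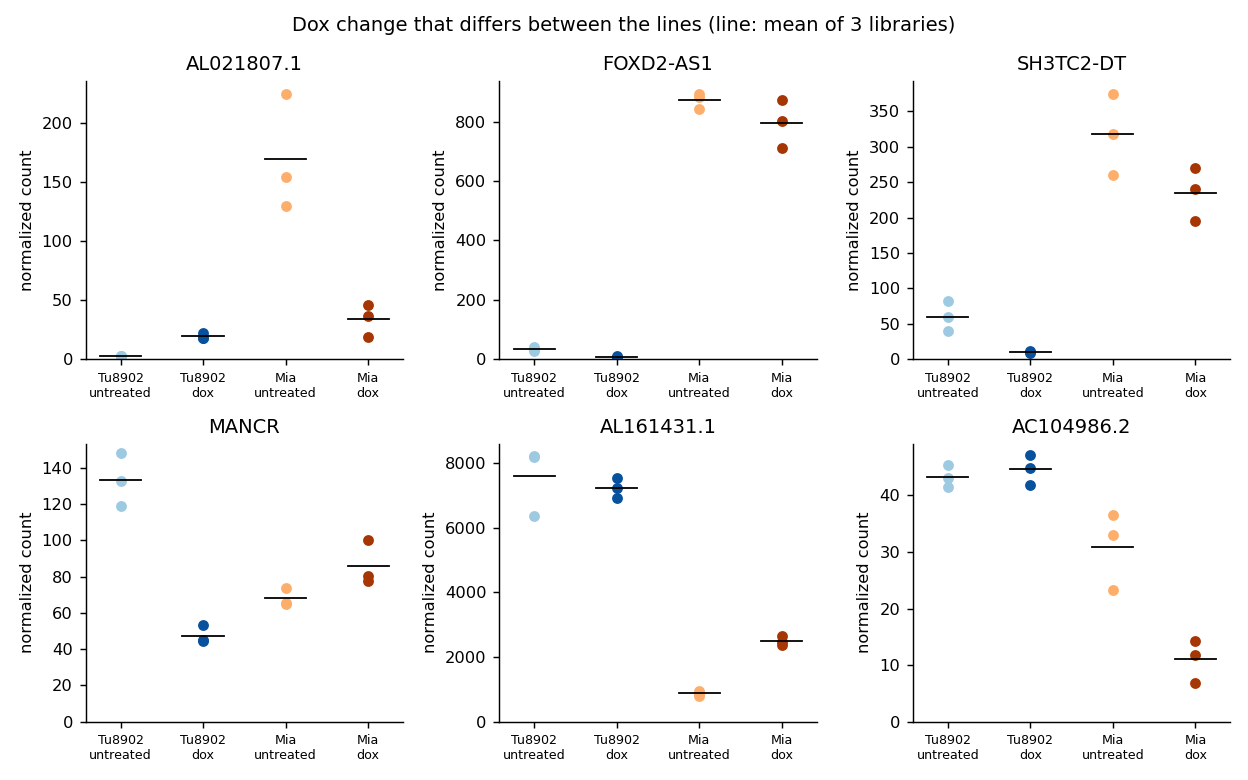
Normalized counts (linear axes starting at 0) of the 6 lincRNAs with the largest difference of dox change between the lines, 1 point per library and a line at the mean of 3. AL021807.1 goes up in Tu8902 and down in Mia, FOXD2-AS1, SH3TC2-DT and MANCR go down in Tu8902, AL161431.1 goes up in Mia from a level far below that of Tu8902, and AC104986.2 goes down in Mia.

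Since many of the lincRNAs start beside a coding gene, each was set beside its nearest coding neighbour within 5000 bases. In Pa-Tu-8902 the neighbour was called with dox for 6 of 24 called lincRNAs (25%), in the same direction for 5, and for 7 of 84 that were not called (8.33%). For head-to-head pairs these were 4 of 15, all in the same direction, and 4 of 61. The share called among all protein-coding genes tested was 17.5%. In MIA PaCa-2 the neighbour was called for 2 of 14 called lincRNAs (14.3%) and for 6 of 92 others (6.52%). Here the share of protein-coding genes was 12.4%, close to that of the 14 neighbours. Between the untreated lines the neighbour was called for 52 of 76 called lincRNAs (68.4%), in the same direction for 47, and for 18 of 40 others (45%). For protein-coding genes as a whole it was 58.5%. Pairs share a locus and are not independent, and no test was made of these counts.

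The head-to-head pairs called together were the following. GAS6, which encodes the ligand of the receptor kinases AXL, MERTK and TYRO3, had 11284, 11691 and 11583 normalized counts without and 3382, 3265 and 3259.5 with dox in Pa-Tu-8902 (log2 -1.80 ± 0.04, adjusted p = 2.63e-09), beside -2.48 ± 0.13 for GAS6-DT. GAS6 also fell in MIA PaCa-2 (log2 -0.68 ± 0.11), where GAS6-DT was at 1.0 to 5.1 normalized counts and not tested. Between the untreated lines GAS6 differed by 5.21 ± 0.08 and GAS6-DT by 7.37 ± 0.25, so both members of the pair were high in Pa-Tu-8902.

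SH3TC2, an adaptor known from peripheral nerve, had 1341, 1327 and 1231 without dox and 576, 508 and 518 with it in Pa-Tu-8902 (log2 -1.28 ± 0.07), beside -2.60 ± 0.34 for SH3TC2-DT. It also fell in MIA PaCa-2 (log2 -0.75 ± 0.07, adjusted p = 6.45e-06), where SH3TC2-DT was not called (log2 -0.44 ± 0.15). HK2, a hexokinase that starts glycolysis, had 2284, 2303 and 2195 without dox and 1357, 1318 and 1265 with it in Pa-Tu-8902 (log2 -0.78 ± 0.05), beside -1.08 ± 0.14 for AC019069.1, and the dox change of both differed between the lines (-0.88 ± 0.10 and -0.99 ± 0.24). The difference for AC019069.1 was not called when any untreated Pa-Tu-8902 library, dox-treated Pa-Tu-8902 replicate 1, untreated MIA PaCa-2 replicate 3 or dox-treated MIA PaCa-2 replicate 1 or 2 was left out (log2 -0.82 to -0.99, adjusted p = 0.0108 to 0.0204), nor with effective lengths as offsets (adjusted p = 0.0191). LY6E and LY6E-DT, which overlap on opposite strands in the annotation, rose by 1.09 ± 0.09 and 1.03 ± 0.22. Whether reads of LY6E were counted for LY6E-DT was not tested.

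The promoters of 3 of these lincRNAs are shown because each lincRNA and its coding partner moved together and start close to each other. Each is the 300 bases from 250 before to 50 after the lincRNA's RefSeq start on GRCh38.p14, 5′ to 3′ on the lincRNA's strand, with GC boxes (GGGCGG or its reverse complement CCGCCC) in capitals. The partner starts 101 bases away for GAS6-DT, 255 for SH3TC2-DT and 140 for AC019069.1 (HK2-DT in RefSeq), all by RefSeq.
GAS6-DT promoter, chr13:113863927-113864226 (+ strand): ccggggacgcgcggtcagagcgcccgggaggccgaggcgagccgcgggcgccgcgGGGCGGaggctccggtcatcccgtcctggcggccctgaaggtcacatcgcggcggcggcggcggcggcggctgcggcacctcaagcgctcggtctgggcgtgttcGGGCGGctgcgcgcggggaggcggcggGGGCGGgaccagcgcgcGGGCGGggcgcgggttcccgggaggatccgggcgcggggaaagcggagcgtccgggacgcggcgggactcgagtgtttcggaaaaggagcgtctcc
SH3TC2-DT promoter, chr5:149063067-149063366 (+ strand): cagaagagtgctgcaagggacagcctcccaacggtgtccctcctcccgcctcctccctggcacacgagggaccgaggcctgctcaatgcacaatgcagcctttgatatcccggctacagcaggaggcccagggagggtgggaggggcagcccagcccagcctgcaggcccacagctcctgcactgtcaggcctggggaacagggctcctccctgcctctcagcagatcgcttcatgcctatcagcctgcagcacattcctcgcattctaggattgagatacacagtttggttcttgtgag
AC019069.1 promoter, chr2:74833938-74834237 (- strand): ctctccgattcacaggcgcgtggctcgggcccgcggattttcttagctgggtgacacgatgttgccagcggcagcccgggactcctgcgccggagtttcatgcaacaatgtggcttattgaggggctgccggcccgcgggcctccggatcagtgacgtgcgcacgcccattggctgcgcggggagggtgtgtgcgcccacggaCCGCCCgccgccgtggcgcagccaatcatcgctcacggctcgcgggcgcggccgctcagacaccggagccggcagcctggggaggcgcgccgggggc
The GAS6-DT window held 56 CG dinucleotides and 4 GC boxes, that of AC019069.1 39 and 1, with 2 CCAAT motifs, and that of SH3TC2-DT 7 and 0, against a median of 14 CG over 35116 promoters of the same length. On either strand, GGGCGG was found in 45% of those promoters, CCAAT in 34.6%, TATAAA in 11.5% and CACGTG in 7.26%, and the last 2 were in none of the 3 windows shown. A match describes letters in the window and no binding was measured.

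AL021807.1 (chr6:27122657-27123221) lies 2676 bases downstream of HIST1H2BJ on the same strand, and it changed in the same direction as this histone H2B gene in each line. HIST1H2BJ had 42.6, 67.8 and 55.2 normalized counts without and 121, 134 and 92.0 with dox in Pa-Tu-8902 (log2 1.06 ± 0.21) and 643, 769.8 and 633 without dox and 143, 135 and 158 with it in MIA PaCa-2 (log2 -2.22 ± 0.11), and its interaction was 3.28 ± 0.23. Both genes thus rose in Pa-Tu-8902 and fell in MIA PaCa-2. Whether a single transcript spans both was not tested. LINC01351 and BRINP3, 147 bases apart, fell together in MIA PaCa-2 (log2 -1.27 ± 0.31 and -0.71 ± 0.08).

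SNHG4 fell in Pa-Tu-8902 and its overlapping neighbour SIL1 on the opposite strand was called in the other direction. The partners FOXD2, OSER1 and TEAD4 were not called with dox there. FOXD2 had 4.9, 6.7 and 13.5 normalized counts without and 12.6, 17.4 and 6.3 with dox in Pa-Tu-8902 (log2 0.57 ± 0.50, adjusted p = 0.372) while FOXD2-AS1 fell, at counts too low to show a small change. OSER1 differed by 0.34 ± 0.05 beside 0.96 ± 0.13 for OSER1-DT, under the fold limit. TEAD4, a transcription factor of the Hippo pathway, differed by -0.39 ± 0.07 beside -0.84 ± 0.05 for AC125807.2, and both were far higher in untreated Pa-Tu-8902 than in MIA PaCa-2 (log2 3.06 ± 0.07 and 2.69 ± 0.09).

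**Figure D5:**
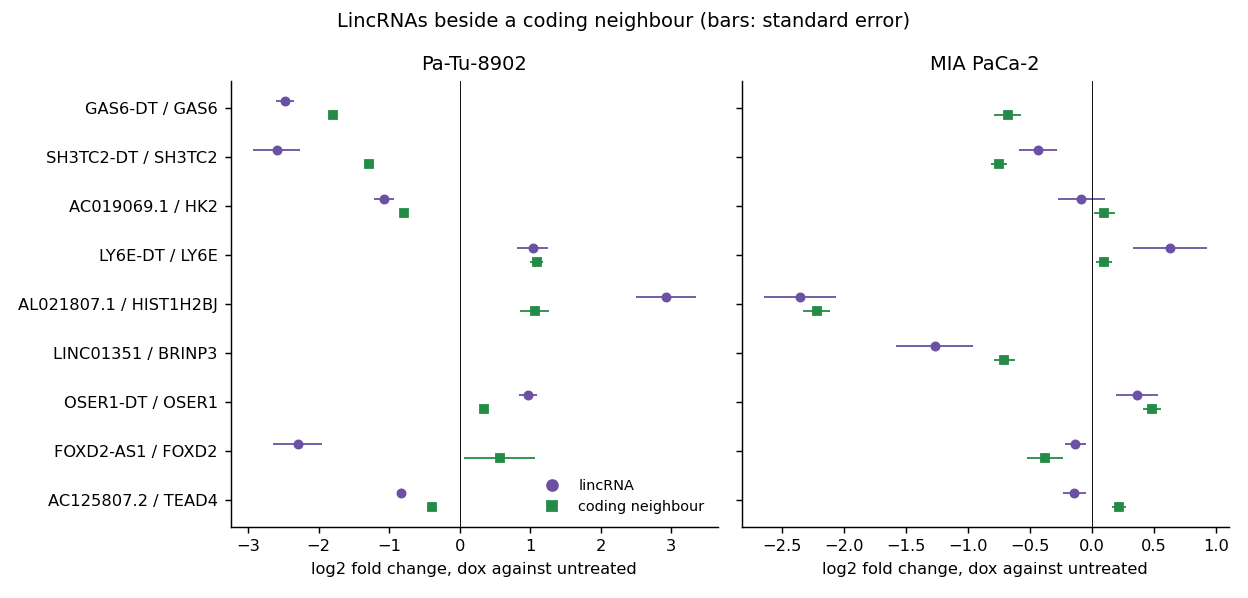
Log2 fold change with dox of 9 lincRNAs (circles) and their coding neighbours (squares) in each line, with bars of 1 standard error from edgeR; a missing point was not tested, and the circle of AL021807.1 in Pa-Tu-8902 rests on untreated counts at the floor. Where both genes of a pair were called, both symbols lie on the same side of 0. These are GAS6-DT, SH3TC2-DT, AC019069.1, LY6E-DT and AL021807.1 in Pa-Tu-8902 and AL021807.1 and LINC01351 in MIA PaCa-2. The symbols lie on opposite sides for FOXD2-AS1 in Pa-Tu-8902 and for AC019069.1 and AC125807.2 in MIA PaCa-2, where the neighbour was not called. Other pairs with both genes tested lie on the same side.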

How the data were processed

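Poly(A)-selected, strand-specific RNA-seq was made from 12 libraries, 3 untreated and 3 dox-treated per line. The authors trimmed reads with Trimmomatic 0.39, aligned them with STAR 2.5.2a through RSEM 1.3.1 to GRCh38 with GENCODE release 29, and deposited RSEM's results. The deposited values are expected counts (estimated counts of reads, not normalized), TPM and FPKM by the authors, per gene and per isoform, with the effective length of each gene in bases. RSEM divides reads between loci they fit equally, and 17.1% of the counts of the lincRNAs were not whole (tolerance 0.005), against 5.34% over all genes, so values of near-identical loci are uncertain. Isoform percentages were computed from the isoform TPM.

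Expected counts were rounded, genes that reached 10 counts in 3 or more of the fitted libraries were kept, and edgeR 4.0.16 (R 4.3.3, TMM, quasi-likelihood F test, two-sided) was fitted to all genes of each comparison. Groups were taken from the sample titles. To be called, a gene needed an adjusted p (Benjamini-Hochberg) under 0.01 together with a change of 1.5-fold or more. Normalized counts are counts scaled by the TMM library sizes of that comparison, so a library's value can differ slightly between comparisons. SE is the log2 difference divided by the square root of F. Values of each library and counts at the floor (3 counts per library) cover counting error only. On simulated counts in Pa-Tu-8902, edgeR recovered 93 of 100 genes changed by 1 on the log2 scale, with 8 false calls among 14757 genes tested. The changed genes were drawn only from those with higher mean counts, so this rate does not cover lincRNAs of few counts.

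The members and the gene lists were chosen with earlier results of these data known. Named were the 10 lincRNAs with the highest mean TPM, the 8 largest called rises and falls with dox in each line (groups not overlapping), the 8 largest called differences between the untreated lines in each direction, the 6 largest called interactions, those called in both lines, list members, the 3 on each side of the TPM limit, called genes of the protein lists, and coding neighbours. SNHG15, the isoforms, AC125807.2, AC019069.1 and the pairs of the neighbour section outside these were chosen after their values were seen. Positions are from GENCODE 44 on GRCh38, in which 8 of the lincRNAs were not found. Alternatives were DESeq2 1.42.0, its size factors, other filters, call limits and member limits, effective lengths as offsets, a replicate block, 1 fit of all 12 libraries and leaving out each library.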

Additional observations from a re-analysis of the deposited data

Results flagged for a closer look

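The dox change differed between the lines for 18 lincRNAs by edgeR's interaction test over all 12 libraries (called at the limits used throughout). Values are the log2 change in Pa-Tu-8902 minus that in MIA PaCa-2, with no explanation weighed. The change was more positive in Pa-Tu-8902 for AL021807.1 (5.27, from untreated Pa-Tu-8902 counts at the floor), AC104986.2 (1.52), AC107959.4 (1.17), AL365203.2 (1.07), LINC01963 (0.96) and UCA1 (0.81). It was more positive in MIA PaCa-2 for FOXD2-AS1 (-2.16), SH3TC2-DT (-2.15), MANCR (-1.83), AL161431.1 (-1.59), BLACAT1 (-1.06) and AC019069.1 (-0.99). The same direction was found for SNHG4 (-0.90), AC006504.5 (-0.79), SNHG15 (-0.71), AC125807.2 (-0.69), PVT1 (-0.68) and LINC01106 (-0.60). The adjusted p lay between 7.59e-08 for AL161431.1 and 0.00914 for AC107959.4, and 11 of the 18 kept the call whichever library was left out.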

How the results depend on the processing

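No called lincRNA changed direction under any alternative run in which it was tested. Settings other than leaving out a library were compared next, and a setting in which a lincRNA was not tested was passed over. In all remaining settings, 28 of 40 Pa-Tu-8902 calls with dox and 27 of 35 MIA PaCa-2 calls were kept. So were 153 of 167 calls between the untreated lines and 10 of 18 interactions. Leaving out 1 library gave 7 to 15 rises and 19 to 23 falls in Pa-Tu-8902, 5 to 20 rises and 17 to 23 falls in MIA PaCa-2, 44 to 68 higher and 72 to 92 lower between the untreated lines, and 4 to 7 positive and 9 to 13 negative interactions. With effective lengths as offsets, rises in Pa-Tu-8902 numbered 11 and negative interactions 7. Without a fold limit 38 fell in Pa-Tu-8902. With at least 10 counts in every library, 37 were higher and 65 lower between the untreated lines, since a lincRNA of 1 line is then not tested. Positive interactions numbered 12 with no filter and 16 at an adjusted p below 0.05. The rule itself kept 410 lincRNAs at a mean of 1 TPM, 131 at 5 TPM and 144 when both lines had to reach 2 TPM. Uncalled values that changed sign were, with effective lengths, EPB41L4A-AS1 (-0.26) and MIR4458HG (-0.08) with dox in MIA PaCa-2 and NEAT1 (0.037) and SNHG8 (0.20) between the untreated lines, and MALAT1 in MIA PaCa-2, at -0.034 without untreated replicate 1 and 0.761 without replicate 2. The cause was not tested. The labels do not say whether same-numbered libraries were paired. Correlations of their deviations ran from -0.24 to 0.31, and those of differently numbered libraries from -0.43 to 0.33. With 3 libraries per group these values cannot exclude a pairing. With the replicate number as a block, 16 rose and 22 fell in Pa-Tu-8902, while 15 rose and 22 fell in MIA PaCa-2, 68 were higher and 96 lower between the lines, and 5 and 12 interactions were called. DESeq2 gave 17 and 21, 14 and 23, 69 and 93, and 8 and 12. Among lincRNAs of few counts a change under the fold limit was not detectable at this depth.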
